A study of Macaca fascicularis with 6 samples.

Results

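Basement membranes are thin sheets of matrix under epithelium and endothelium and around muscle cells and pericytes. Type IV collagen forms one network of the sheet and laminin, a trimer of an alpha, a beta and a gamma chain, forms the other, which touches the cell. Nidogen and the proteoglycan perlecan link both networks. In the lung alveolus the sheet lies between the type 1 epithelial cell and the capillary, and airway asthma is known for a thickened layer of matrix below the epithelium.

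The genes described here were 9 of the 28623 genes listed in the files: COL4A1 and COL4A2 (the collagen IV alpha 1 and alpha 2 chains), LAMA4, LAMA5, LAMB1, LAMB2 and LAMC1 (laminin chains), NID1 (nidogen 1) and HSPG2 (perlecan). They were chosen by name and not by a measured threshold, with earlier results of these data known, and each matched 1 row of every library. The study profiled lung cells of 6 male cynomolgus monkeys aged 3-5 years with a droplet-based 3′ assay, in which each captured RNA molecule is counted once by its unique molecular identifier (UMI). The 3 control monkeys (replicates 1, 2 and 3) received saline. The 3 asthma monkeys (replicates 8, 10 and 11) were sensitised under the skin with Ascaris suum antigen in adjuvant and then challenged with the antigen through the nose. This models an allergic response to a parasite antigen, and each monkey gave 1 library.

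Control replicates 1, 2 and 3 held 40556102, 33210436 and 32240293 UMIs in their files, and asthma replicates 8, 10 and 11 held 41184329, 41489879 and 29014556. After quality control 24235 of 35133 barcodes were kept as cells, 11441 of control and 12794 of asthma libraries, with medians between 3835 and 5048.5 UMIs per cell. Of the cell barcode sequences, 75 occurred in more than 1 library. Cell types were rebuilt by clustering without the 9 genes and named from markers as "-like" types. Clusters met the marker rule for alveolar, airway, mesothelial and vascular types, which are types of the labelled tissue, lung. Each named type holds its markers by that rule. Levels are UMIs of a gene per 1000000 UMIs of a type in a library (CPM), used where a library held at least 10 cells of the type. A 3′ UMI count has no length factor, but levels of different genes also depend on how well their 3′ ends are annotated.

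The cells held 5524 UMIs of LAMB1, 5043 of COL4A2, 4508 of LAMA4, 4478 of LAMB2, 3000 of LAMC1, 2598 of NID1, 1652 of LAMA5, 1260 of COL4A1 and 194 of HSPG2. Each type showed its own combination of chains. Pericyte-like cells, the mural cells of capillaries, had the highest mean CPM of COL4A1, COL4A2, LAMB1 and NID1 among 19 types. Alveolar type 1 (AT1)-like cells, the thin cells of gas exchange, had the highest LAMA5 and LAMB2, and lymphatic endothelial-like cells the highest LAMA4 and LAMC1. For 6 of the 9 genes the first type was the same in all settings tried. At a 10% mitochondrial maximum pericyte-like cells came first for LAMA4 and matrix fibroblast-like cells for LAMC1, and HSPG2, highest in larger-vessel endothelial-like cells, was highest in AT1-like cells at resolution 1.6 and in basal-like cells by the mean over cells. The lymphatic endothelial-like levels rest on 11 cells of control replicate 3 and 10 of asthma replicate 11, close to the minimum of 10 cells. Whether this type still met that minimum at the 10% maximum is not given here. T and NK-like cells, taken as a type that makes no basement membrane, averaged between 0.045 and 1.80 CPM for the 9 genes over 6 libraries. This is the level against which other types were read, and its source was not tested. Immune types were not all at that level, since macrophage-like cells held 13.7 CPM ± 7.86 of LAMB2 and 7.44 CPM ± 4.79 of NID1 (SD, n = 6). The capillary endothelial-like cells named here were 2 sub-clusters, and the 10 leading genes of one of them held no capillary marker, so that its values are also given apart below.

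**Figure D1:**
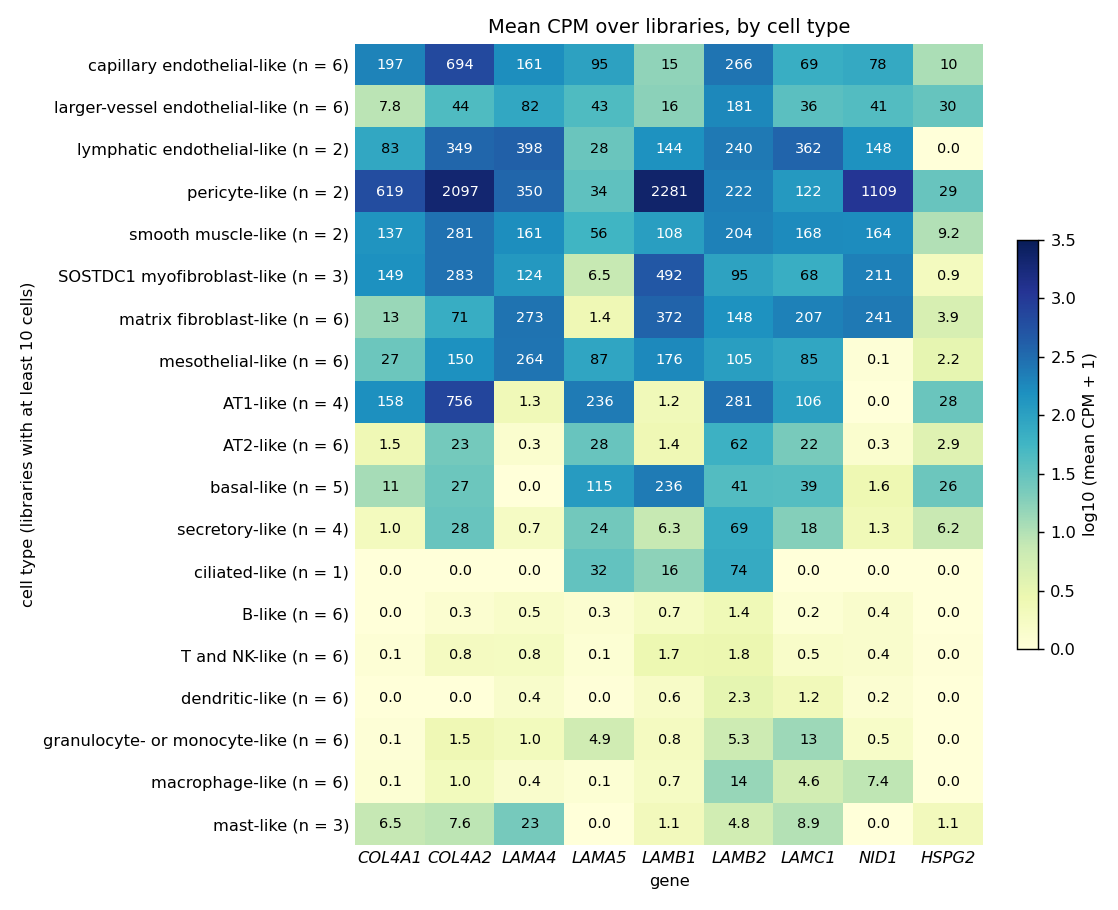
Mean level of each gene (columns) in each cell type (rows) as CPM, over libraries with at least 10 cells of the type; the colour is log10(mean CPM + 1) and a printed 0.0 stands for under 0.05 CPM. Pericyte-like, AT1-like and capillary endothelial-like cells held the most COL4A2, and T and NK-like cells lay at 1.80 CPM or below for each of the 9 genes.

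The 2 collagen IV chains were highest in the same types. COL4A2 was at 2097 CPM ± 1309 in pericyte-like cells (SD, n = 2), 756 CPM ± 94.3 in AT1-like cells (n = 4) and 694 CPM ± 276 in capillary endothelial-like cells (n = 6). Spread here and below is the SD around the mean, and by it these types overlapped. The pericyte-like SD rests on 2 libraries, and an overlap of single library values is not meant. Lymphatic endothelial-like cells followed at 349 CPM ± 196 (n = 2), SOSTDC1 myofibroblast-like cells at 283 CPM ± 65.8 (n = 3) and smooth muscle-like cells at 281 CPM ± 18.4 (n = 2), which did not differ beyond their spread either. Mesothelial-like cells, the lining of the lung surface, held 150 CPM ± 46.0 (n = 6), and matrix fibroblast-like cells 71.0 CPM ± 22.4 (n = 6). Larger-vessel endothelial-like cells held 43.6 CPM ± 22.3 (n = 6), below all 6 capillary endothelial-like values. COL4A1 followed much the same order, at 619 CPM ± 201 in pericyte-like, 197 CPM ± 129 in capillary endothelial-like and 158 CPM ± 12.2 in AT1-like cells. COL4A1 made up 17.3% of the UMIs of both chains in AT1-like cells, 22.4% in capillary endothelial-like, 24.5% in pericyte-like and 34.4% in SOSTDC1 myofibroblast-like cells (means of 4, 5, 2 and 3 libraries).

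The laminin alpha chains marked out epithelium from mesenchyme. LAMA4, the alpha chain of mesenchymal and endothelial laminins, was at 398 CPM ± 89.2 in lymphatic endothelial-like (n = 2), 350 CPM ± 188 in pericyte-like (n = 2), 273 CPM ± 53.9 in matrix fibroblast-like (n = 6) and 264 CPM ± 89.6 in mesothelial-like cells (n = 6), levels that did not differ beyond their spread. No UMI of it was found in basal-like cells. LAMA5, the alpha chain of mature epithelial and endothelial laminins, was at 236 CPM ± 32.3 in AT1-like (n = 4) and 115 CPM ± 37.9 in basal-like cells (n = 5), and at 1.42 CPM ± 1.37 in matrix fibroblast-like cells (n = 6). Of the UMIs of both alpha chains, LAMA4 made up 99.5% in matrix fibroblast-like, 91.7% in pericyte-like, 73.6% in mesothelial-like and 0.667% in AT1-like cells. Larger-vessel and capillary endothelial-like cells held both, with 61.4% LAMA4 in the first (4 libraries) and 56.9% in the others (3 asthma libraries), while lymphatic endothelial-like cells held mostly LAMA4, at 92.9% (2 libraries).

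The beta chains divided along another line. LAMB1, the beta chain of most embryonic and mesenchymal laminins, was at 2281 CPM ± 653 in pericyte-like cells (n = 2), above 492 CPM ± 79.0 in SOSTDC1 myofibroblast-like (n = 3) and 372 CPM ± 104 in matrix fibroblast-like cells (n = 6), whose spreads overlapped. Among epithelial types only basal-like cells, the stem cells of the airway, held much of it, at 236 CPM ± 118 (n = 5), against 1.21 CPM ± 1.5 in AT1-like cells (n = 4). LAMB2, the beta chain of mature vessels and of the alveolus, was at 281 CPM ± 99.5 in AT1-like and 266 CPM ± 79.8 in capillary endothelial-like cells, which did not differ beyond their spread, and at 181 CPM ± 47.7 in larger-vessel endothelial-like cells (n = 6). LAMB1 made up 91.0% of the UMIs of both beta chains in pericyte-like, 83.9% in SOSTDC1 myofibroblast-like, 5.44% in capillary endothelial-like and 0.449% in AT1-like cells. LAMC1, the gamma chain shared by most laminins, ranged over these types from 362 CPM ± 97.6 in lymphatic endothelial-like (n = 2) and 207 CPM ± 35.7 in matrix fibroblast-like cells (n = 6) to 106 CPM ± 50.3 in AT1-like (n = 4) and 68.8 CPM ± 66.6 in capillary endothelial-like cells (n = 6), with 12.6 CPM ± 3.63 in granulocyte- or monocyte-like cells (n = 6).

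NID1 was highest in mesenchymal types. It was at 1109 CPM ± 694 in pericyte-like (n = 2), 241 CPM ± 55.5 in matrix fibroblast-like (n = 6) and 211 CPM ± 90.6 in SOSTDC1 myofibroblast-like cells (n = 3). AT1-like cells had no UMI of NID1 in the 4 libraries with at least 10 of these cells, and mesothelial-like cells 1 in all 6 libraries, although both held collagen IV and laminin chains. HSPG2 was scarce everywhere, at most 29.7 CPM ± 7.25, in larger-vessel endothelial-like cells (n = 6), and pericyte-like, AT1-like and basal-like cells did not differ from these beyond their spread. The pericyte-like levels rest on asthma replicates 10 and 11, with 25 and 124 cells, and the 7 pericyte-like cells of asthma replicate 8 gave 41 UMIs of COL4A2 and 35 of LAMB1.

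Over the 19 types, the genes whose mean log2(CPM + 1) followed COL4A1 most closely were COL4A2 (Pearson r = 0.96), DDX42 (0.95) and ICE1 (0.95). For LAMA5 they were ITGA3, a laminin receptor subunit (0.91), ZDHHC2 (0.90) and AGRN, the proteoglycan agrin (0.89). For LAMA4 they were HOXA5 (0.94), ZCCHC24 (0.93) and FGFR1 (0.92), for LAMB1 ADAMTSL3, SNAI2 and BMP2 (0.90 each), and for LAMB2 CDC42BPA (0.98), ARHGAP29 (0.96) and IL6ST (0.95). NID1 was followed by CALHM5 (0.97), ADGRA2 (0.93) and LHFPL6 (0.93), LAMC1 by TNRC18 (0.91), COL4A2 (0.90) and CTDSP2 (0.89), COL4A2 after COL4A1 by ASH1L (0.95) and EPN2 (0.95), and HSPG2 by FRAS1 (0.86), RGS5 (0.86) and PRPSAP1 (0.85). These coefficients describe 19 types that share libraries and differ in depth, and among 11745 genes high values arise readily. COL4A1 and COL4A2 were neighbours in the RefSeq gene table of the species (assembly T2T-MFA8v1.1).

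Whole libraries were compared first, which asks whether asthma lungs yielded more basement membrane RNA in all. In whole libraries more cells of a type and more RNA per cell cannot be told apart. COL4A2 was at 9.30, 10.6 and 10.1 CPM in control replicates 1, 2 and 3 and at 45.9, 37.7 and 62.2 CPM in asthma replicates 8, 10 and 11. Every asthma library lay above every control library, and COL4A2 rose by a log2 difference of 2.13 (SE 0.19, adjusted p = 0.0351, edgeR), 4.37-fold. It was the only one of the 9 genes that passed, in a comparison that called 0.0839% of 14306 genes. The call held without asthma replicate 11 (log2 difference 1.92) and was lost without any other single library, with log2 differences up to 2.25. The number of genes called in all, 12, was 0, 5 and 11 without control replicates 1, 2 and 3 and 5, 0 and 6 without asthma replicates 8, 10 and 11. COL4A1 was at 2.17, 2.03 and 2.11 CPM in the controls, against 10.9, 6.62 and 21.1 CPM in the asthma libraries, also without overlap, with a log2 difference of 2.44 (SE 0.42, adjusted p = 0.122, edgeR).

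The laminins had smaller differences that did not pass. LAMB1 was at 6.40, 14.1 and 26.0 CPM in the controls, against 51.4, 26.5 and 72.3 CPM in the asthma libraries, a log2 difference of 1.57 (SE 0.51, adjusted p = 0.294, edgeR). LAMA5 was at 3.42, 4.31 and 7.61 CPM against 15.6, 14.3 and 11.3 CPM, a log2 difference of 1.31 (SE 0.28, adjusted p = 0.177, edgeR). Neither gene overlapped between the groups, but LAMB1 in asthma replicate 10 lay close to control replicate 3. LAMA4, LAMB2 and LAMC1 had log2 differences of 1.33, 0.83 and 0.61, NID1 0.42 and HSPG2 0.77. Of the 9 genes 7 had control and asthma libraries that did not overlap, as did 19% of all genes tested. The median log2 difference was 1.31 over the 9 genes and -0.015 over all genes. DESeq2 called 5 of the 9 genes, COL4A1, COL4A2, LAMA5, LAMB1 and LAMB2, all higher in asthma, among 648 genes in all.

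**Figure D2:**
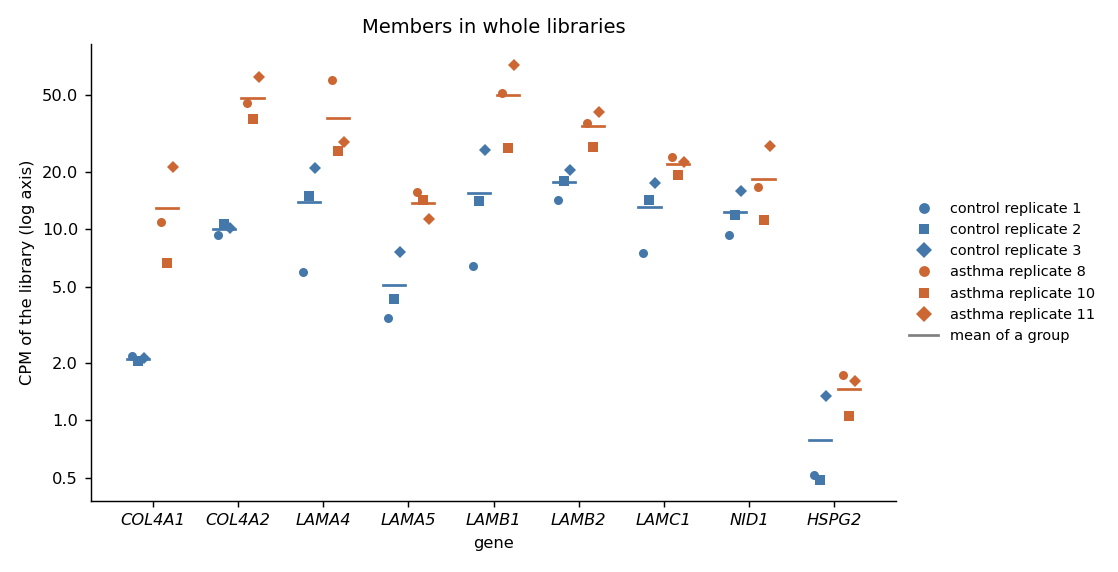
Level of each gene in all cells of a library, in CPM on a logarithmic axis, with 1 point per library and a line at each group's mean. COL4A2 lay at 9.30 to 10.6 CPM in the control libraries and at 37.7 to 62.2 CPM in the asthma libraries, and NID1 and HSPG2 overlapped.

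The mix of cells differed between the groups, also in the types that hold most collagen IV. Capillary endothelial-like cells numbered 12, 13 and 12 in the control libraries and 187, 192 and 289 in the asthma libraries. AT1-like cells numbered 16, 4 and 3 against 109, 38 and 97, and pericyte-like cells 1, 0 and 1 against 7, 25 and 124. Immune types differed too, such as mast-like cells, with 3, 7 and 5 against 56, 21 and 11, and B-like cells, with 274, 201 and 240 against 153, 159 and 59. The summed level of the 8 capillary markers in whole libraries was 81.3, 66.9 and 162 CPM in the controls, against 515, 470 and 649 CPM in the asthma libraries, and 2 of the 7 that could be tested were called higher by edgeR. FCN3 was the most abundant of them, and it was also among the 10 leading genes of an endothelial-like cluster led by VWF, a larger-vessel marker. In whole libraries edgeR called 0.0839% of all genes. The 10 pericyte markers, with PDGFRB the most abundant, summed to 22.4, 32.0 and 50.8 CPM against 85.3, 68.1 and 338 CPM, and the 8 AT1 markers, with HOPX the most abundant, to 519, 530 and 476 CPM against 1290, 754 and 1060 CPM, with 0 of 10 and 0 of 8 called by edgeR. HOPX averaged 329 CPM in whole libraries. AT1-like cells were 0.369%, 0.125% and 0.0769% of the cells of control replicates 1, 2 and 3. The AT1 sum did not follow these cells in the controls, and which other cells held the markers was not tested. No gene of these lists was at 0 in the controls, and each list had 6 genes whose asthma libraries all lay above the controls, as did 15.9% of all genes tested.

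The types that held the UMIs differed too. Capillary endothelial-like cells held 8.37% of the COL4A2 UMIs of the pooled control libraries and 27.5% of those of the asthma libraries, AT1-like cells 11.5% and 19.4%, and pericyte-like cells 0.233% and 12.3%. The pericyte-like share rests on asthma replicate 11 and was 6.14% without it. The control share of AT1-like cells rests mostly on control replicate 1 and was lower without it. That library held 16 of the 23 control cells, with 75 UMIs of both collagen IV chains, 13 of them COL4A1. Matrix fibroblast-like cells held 12.9% and 4.71%, although the cells numbered 286 in control and 373 in asthma and their COL4A2 UMIs 111 and 197. Asthma replicate 11 gave 134 of those 197 UMIs, and the asthma share was lower without it. Mesothelial-like cells held 19.9% of COL4A2 in control and 18.3% in asthma, 25.4% and 34.7% of LAMA5, 25.1% and 51.8% of LAMA4 and 13% and 32.5% of LAMB1, with 31, 47 and 49 mesothelial-like cells in the control and 267, 200 and 30 in the asthma libraries. A further sub-cluster of 150 cells, 133 of them from control replicate 1, had macrophage markers among its leading genes and was set apart as mixed. With it counted in, the shares were 26.1% and 52.3% of LAMA4 and 14.8% and 32.9% of LAMB1. Asthma replicate 8 carried the shares of LAMA4 and LAMB1, which were 34.3% and 14.9% without it, and in asthma replicate 11 they were 8.29% and 1.96%, below the controls. That of LAMA5 was 33.6% without asthma replicate 8 and 25.2% without asthma replicate 10. That of COL4A2 ranged from 13.1% without asthma replicate 10 to 27.8% without asthma replicate 11, below and above the control share. For NID1, matrix fibroblast-like cells held 47.0% in control and 30.6% in asthma, and pericyte-like cells 0.19% and 16.9%, or 8.51% without asthma replicate 11. Macrophage-like cells, low in NID1 per UMI but numerous, held 25.2% of it in control and 18.4% in asthma, or 8.95% without asthma replicate 8. When capillary endothelial-like, pericyte-like and AT1-like cells were left out, an alternative chosen after these values were seen, the log2 difference of COL4A2 in whole libraries was 1.24 (adjusted p = 0.368, edgeR) and no gene was called by edgeR.

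**Figure D3:**
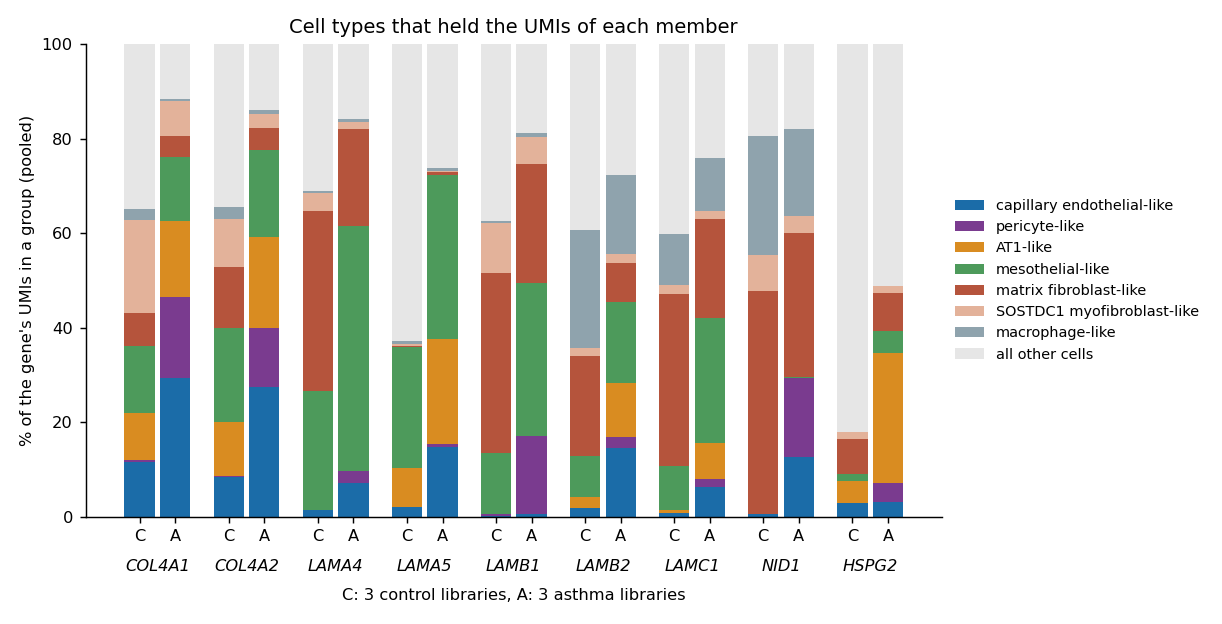
Share of each gene's UMIs, in percent of the pooled 3 control (C) or 3 asthma (A) libraries, that lay in each cell type. Capillary endothelial-like cells held 8.37% of control and 27.5% of asthma COL4A2 UMIs, and matrix fibroblast-like cells the largest share of NID1 in both groups.

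Stromal-like cells, here endothelial-like, fibroblast-like and mural-like cells together, were compared next. COL4A2 was at 131, 146 and 93.9 CPM in the control and 291, 391 and 346 CPM in the asthma libraries, 124 CPM ± 26.8 against 342 CPM ± 50.3 (SD, n = 3 each). The groups did not overlap, and the log2 difference was 1.22 (SE 0.23, adjusted p = 0.0402, edgeR). It was again the only one of the 9 genes called, against 1.93% of 9548 genes. COL4A1 was at 50.9, 35 and 24.8 CPM in the controls, against 66.4, 85.4 and 137 CPM in the asthma libraries (log2 difference 1.18, SE 0.33, adjusted p = 0.118, edgeR). LAMC1 lay the other way, at 122, 212 and 163 CPM against 119, 103 and 115 CPM (log2 difference -0.82, SE 0.23, adjusted p = 0.119, edgeR). LAMA5 was the remaining gene whose libraries did not overlap, with a log2 difference of 0.86, so that 4 of the 9 were apart, beside 31.5% of all genes tested. Of the 9 genes 4 lay higher and 5 lower in asthma, with a median log2 difference of -0.27, beside 0.0057 over all genes.

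Capillary endothelial-like cells were 8.11%, 10.4% and 3.17% of the stromal-like cells of the control libraries and 50.1%, 56.3% and 30.6% of those of the asthma libraries. The capillary markers there summed to 2343, 1497 and 1880 CPM in the controls, against 6848, 9280 and 4606 CPM in the asthma libraries, and 4 of 7 tested were called higher by edgeR. The pericyte markers summed to 439, 267 and 386 CPM against 971, 1107 and 2470 CPM, with 3 of 9 called higher. In this comparison edgeR called 1.93% of all genes. RGS5 was the most abundant pericyte marker here, and among the 19 types it was highest in capillary endothelial-like cells, at 945 CPM. The pericyte sum thus also counts capillary endothelial-like cells. Without capillary endothelial-like and pericyte-like cells, the log2 difference of COL4A2 in stromal-like cells was -0.024 (adjusted p = 0.999, edgeR) and that of COL4A1 0.21, and no gene was called. LAMA5, higher in asthma over all stromal-like cells, lay lower in asthma in that setting. The call of COL4A2 also ended when any 1 control library or asthma replicate 8 or 10 was left out, with log2 differences between 1.02 and 1.40. The 184 genes called in all became 50, 39 and 3 without control replicates 1, 2 and 3 and 56, 0 and 360 without asthma replicates 8, 10 and 11.

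Single types were compared next. In endothelial-like cells COL4A2 was at 145, 307 and 72.0 CPM in the controls, against 418, 415 and 434 CPM in the asthma libraries, apart but not called (log2 difference 1.19, SE 0.39, adjusted p = 0.103, edgeR). None of the 9 genes was called there by edgeR or DESeq2, although 5.7% of 7737 genes were and 4 of the 9 had an unadjusted p under 0.05, as had 1770 of all genes tested. The 441 genes called became 153 and 49 without control replicates 1 and 3, 35 and 67 without asthma replicates 10 and 11, and 1 of 4090 without the capillary endothelial-like cells. Of the 9 genes 3 lay higher and 6 lower, with a median log2 difference of -0.12 beside 0.026 over all genes, and 3 did not overlap, as did 30.4% of all genes. Without control replicate 2, COL4A2 was called (log2 difference 1.79, adjusted p = 0.0184, edgeR). Capillary endothelial-like cells were 26.7%, 38.2% and 11.8% of the control and 73.3%, 81.7% and 83.8% of the asthma endothelial-like cells. In capillary endothelial-like cells alone COL4A2 was at 1031, 1018 and 367 CPM in the controls, against 695, 536 and 518 CPM in the asthma libraries, overlapping, with a log2 difference of -0.37 (SE 0.34, adjusted p = 0.885, edgeR), and the control values rest on 72 UMIs in 37 cells. None of the 7 genes tested there was called by edgeR or DESeq2, none had an unadjusted p under 0.05, and the share called among all genes was 0%, with 322 of 5096 genes at an unadjusted p under 0.05. Of these 7 genes 6 lay lower in asthma and 1 higher, with a median log2 difference of -0.37 beside 0.14 over all genes. LAMA4 and LAMB2 did not overlap, both lower in asthma, in a comparison where 16% of all genes did not overlap.

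The capillary endothelial-like cells formed 2 sub-clusters. The first, with 371 cells, was led by SEMA3G and TMEM88 and had PLVAP, a larger-vessel marker, and no capillary marker among its 10 leading genes, while 5 of the 8 capillary markers were detected in it. The second, with 334 cells, was led by ACE, EDNRB and HPGD, and 7 of the 8 were detected. The first held 4, 0 and 6 cells in the control and 88, 76 and 197 in the asthma libraries, and the second 8, 13 and 6 against 99, 116 and 92. In the first, COL4A2 was at 934 CPM over 10 control cells and 578 CPM over 361 asthma cells, and in the second at 798 CPM over 27 control and 566 CPM over 307 asthma cells, all pooled over libraries. By library the second had COL4A2 at 598, 1018 and 410 CPM in the controls, on 9, 27 and 3 UMIs, against 726, 501 and 474 CPM in the asthma libraries, overlapping. LAMA4 was at 174 CPM in the first and 67.4 CPM in the second, while LAMA5 was at 64.6 and 118 CPM, as pooled levels.

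AT1-like cells had too few control libraries for a test. COL4A2 was at 686 CPM in control replicate 1, the only control library with at least 10 of these cells, and at 683, 775 and 882 CPM in asthma replicates 8, 10 and 11. Pooled over all AT1-like cells, 99 UMIs in 23 control cells gave 795 CPM (95% Poisson interval 647 to 968, which covers counting error only) and 811 UMIs in 244 asthma cells gave 757 CPM (706 to 811), and the intervals overlapped. Of these asthma cells 61 lay in a sub-cluster that held 0 control cells. In pericyte-like cells 2 control cells held 2 UMIs of COL4A2 and 5 of LAMB1, so that no level could be set against the asthma cells. In larger-vessel endothelial-like cells COL4A2 was at 8.66, 76.7 and 38.3 CPM in the controls, against 43.7, 39.0 and 55.0 CPM in the asthma libraries, overlapping, with none of 3 genes called by edgeR or DESeq2, none at an unadjusted p under 0.05, and 0.0291% of all genes called. Mesothelial-like cells overlapped too, at 191, 134 and 81.5 CPM against 117, 182 and 192 CPM.

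**Figure D4:**
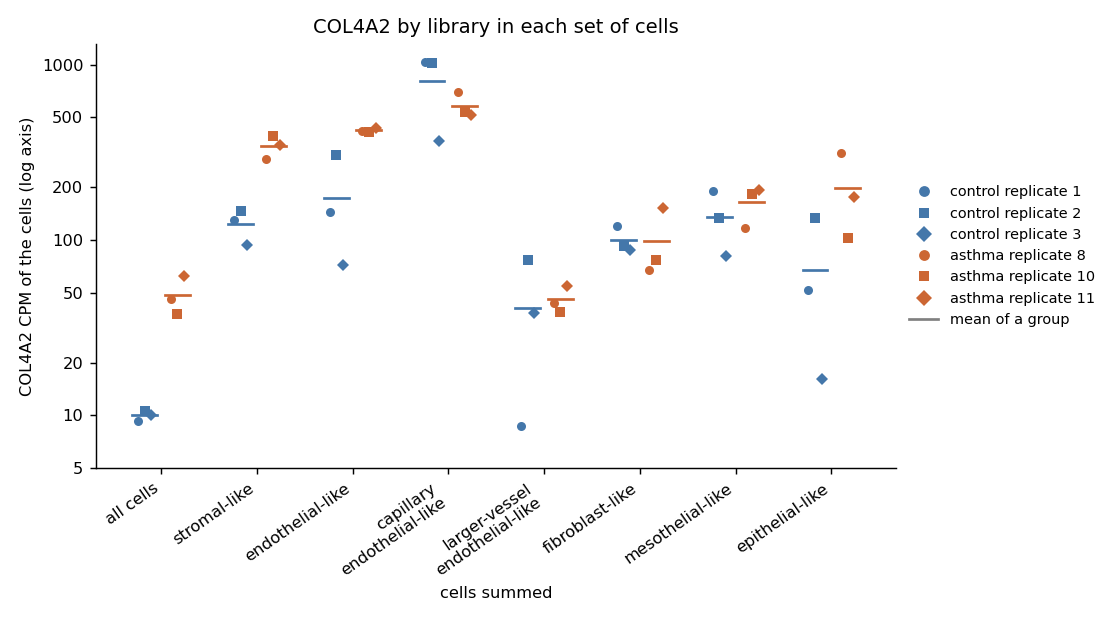
Level of COL4A2 in CPM, with 1 point per library, in all cells and in single cell types, control beside asthma, on a logarithmic axis with a line at each group's mean. The groups stood apart in all cells, stromal-like and endothelial-like cells and overlapped in capillary endothelial-like, larger-vessel endothelial-like and mesothelial-like cells.

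Epithelial-like cells as a whole had COL4A2 at 51.7, 134 and 16.2 CPM in the controls, against 312, 103 and 176 CPM in the asthma libraries (log2 difference 1.57, SE 0.70, adjusted p = 0.652, edgeR). LAMB1 was at 8.32, 40.8 and 157 CPM against 21.9, 24.2 and 39.1 CPM, and control replicate 3, the highest, held 93 of the 156 basal-like cells. The summed AT1 markers were at 4636, 6868 and 1398 CPM in the controls, against 18070, 5969 and 9075 CPM in the asthma libraries, with 0 of 7 tested called by edgeR. None of the 7 genes tested was called, 2 had an unadjusted p under 0.05, and 0% of 9016 genes were called by edgeR, with 659 at an unadjusted p under 0.05 and 5 called by DESeq2. Among the 5 immune classes tested, in which at most 3 of the 9 genes had enough UMIs for the test, none was called by edgeR or DESeq2 and none had an unadjusted p under 0.05.

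No laminin or perlecan gene passed the test in endothelial-like cells. HSPG2 was at 29.6, 25.5 and 16.6 CPM in the controls, against 13.2, 9.88 and 5.82 CPM in the asthma libraries, apart, on 26 and 28 UMIs (log2 difference -1.41, SE 0.45, adjusted p = 0.0929, edgeR). LAMC1 was at 72.5, 235 and 91.4 CPM against 67.9, 43.9 and 76.6 CPM, overlapping, with a log2 difference of -1.16 (adjusted p = 0.109, edgeR). LAMA5 lay higher, at 46.1, 46.0 and 40.2 CPM against 64.8, 88.9 and 68.8 CPM (log2 difference 0.57, adjusted p = 0.188, edgeR). Larger-vessel cells, with the highest HSPG2, were 64.4%, 41.2% and 77.5% of the control and 23.9%, 16.6% and 13.3% of the asthma endothelial-like cells. Lymphatic cells, with the highest LAMC1, were 8.89%, 20.6% and 10.8% against 2.75%, 1.70% and 2.90%. Their part in these differences was not tested.

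The laminin beta chains were compared in fibroblast-like cells, where neither passed the test. In matrix fibroblast-like cells LAMB1 was at 270, 321 and 255 CPM in the controls, against 419, 477 and 492 CPM in the asthma libraries, 282 CPM ± 34.4 against 463 CPM ± 38.5 (SD, n = 3 each; log2 difference 0.57, SE 0.21, adjusted p = 0.378, edgeR). LAMB2 was at 192, 239 and 140 CPM against 130, 80.0 and 106 CPM (log2 difference -0.96, SE 0.28, adjusted p = 0.216, edgeR). These 2 genes and LAMA4 had groups that did not overlap, as did 16% of all genes tested. None of the 6 genes tested was called by edgeR or DESeq2, against 0.372% of 6723 genes, while 2 had an unadjusted p under 0.05, as had 650 of all genes tested. The 25 genes called in all became 1 and 0 without control replicates 1 and 3 and 71 without asthma replicate 8. In all fibroblast-like cells none of 7 was called either, by edgeR or DESeq2, against 0.341% of 7034 genes, again with 2 at an unadjusted p under 0.05, beside 648 of all genes. The 24 genes called became 1, 13 and 0 without control replicates 1, 2 and 3 and 11 without asthma replicate 10. These cells included 124 of no named subtype, 7 from control and 117 from asthma libraries. LAMB1 there was at 321, 319 and 285 CPM in the controls, against 438, 529 and 571 CPM in the asthma libraries.

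The share of LAMB1 in the UMIs of both beta chains, which does not depend on the scaling of libraries, was 58.5%, 57.3% and 64.6% in control and 76.3%, 85.6% and 82.2% in asthma matrix fibroblast-like cells. The groups did not overlap, at 60.1% ± 3.95 against 81.4% ± 4.74 (SD, n = 3 each; 2-sided exact permutation p = 0.1, the smallest that 3 against 3 allows, adjusted p = 0.357 over 25 shares compared). Of the 25 shares 7 reached that smallest p. The matrix fibroblast-like cells also formed 2 sub-clusters, which the groups filled unequally. The one led by CCL11, C3 and DPT held 80 control and 332 asthma cells, and the one led by RBP4, PCOLCE2 and SFRP2 held 206 control and 41 asthma cells.

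Within the CCL11 sub-cluster the LAMB1 share was 76.3%, 71.6% and 85.3% in control and 84.0%, 89.9% and 82.3% in asthma libraries, which overlapped. Within the RBP4 sub-cluster it was 50%, 49.3% and 59.2% in control and 58.1% and 69.8% in asthma replicates 8 and 10, with 1 cell in asthma replicate 11. The difference between group means was 21.3 percentage points in all matrix fibroblast-like cells and 7.69 and 11.1 points within the sub-clusters. Between the sub-clusters the control means were 77.7% ± 7.0 and 52.8% ± 5.55. The sub-clusters were built without LAMB1 and LAMB2.

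**Figure D5:**
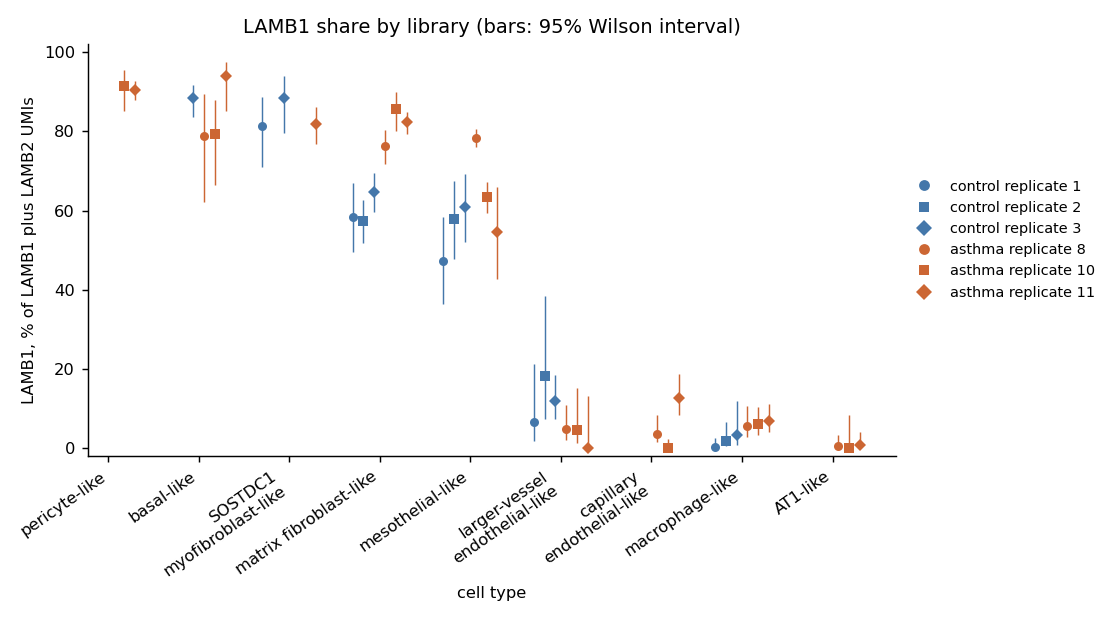
LAMB1 as a percentage of LAMB1 plus LAMB2 UMIs, with 1 point per library, by cell type and group, and bars for the 95% Wilson interval, which covers counting error only. Control matrix fibroblast-like cells lay between 57.3% and 64.6% and asthma cells between 76.3% and 85.6%.

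In mesothelial-like cells LAMB1 was at 87.0, 136 and 161 CPM in the controls, against 329, 177 and 169 CPM in the asthma libraries, apart by little and carried by asthma replicate 8 (log2 difference 0.77, SE 0.31, adjusted p = 0.9995, edgeR). None of the 7 genes tested was called by edgeR or DESeq2, 1 had an unadjusted p under 0.05, beside 197 of all genes, and 0.0373% of 5365 genes were called. The mesothelial-like cells differed in makeup between libraries: a sub-cluster of 182 cells led by NR4A1 and IL6 came to 73.6% from asthma replicate 10, and one of 162 cells led by CSRP2, CCDC80 and C7 to 82.1% from asthma replicate 8. The part of this, and of the 133 cells of control replicate 1 set apart as mixed, in the LAMB1 values was not tested. Their LAMB1 share was 55.4% in control and 65.4% in asthma (exact permutation p = 0.4). Larger-vessel endothelial-like cells had 12.3% ± 5.76 and 3.13% ± 2.72 (exact permutation p = 0.1), a difference in the opposite direction. These shares rest on few UMIs, such as 4 of 22 in control replicate 2 and 0 of 25 in asthma replicate 11. One larger-vessel sub-cluster held 44 control and 93 asthma cells. The other held 78 control cells, 67 of them from control replicate 3, and 53 asthma cells, and the part of this was not tested.

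Whether the asthma difference of a gene was the same in endothelial-like and fibroblast-like cells was tested as an interaction. None of the 9 genes passed, against 0.429% of 8630 genes, and 3 had an unadjusted p under 0.05, beside 1093 of all genes. COL4A2 differed by 1.54 (SE 0.44, adjusted p = 0.158, edgeR) and LAMB1 by -1.87 (SE 0.57, adjusted p = 0.187, edgeR), as endothelial-like minus fibroblast-like log2 difference. Without control replicate 2 the COL4A2 value was 2.07 and passed (adjusted p = 0.0332, edgeR).

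Other basement membrane genes were also read by cell type. AT1-like cells held COL4A3, a collagen IV chain of the mature alveolus, at 820 CPM ± 169, LAMA3 at 477 CPM ± 76.0 and AGRN at 489 CPM ± 139 (SD, n = 4). Pericyte-like cells held LAMA2 at 874 CPM ± 129 and SPARC, a collagen-binding matrix protein, at 2977 CPM ± 135 (n = 2), while SPARC was also at 1919 CPM ± 336 in AT1-like cells (n = 4). In whole libraries edgeR called none of the 16 other components, 12 synthesis genes, 12 receptors and 7 proteases and inhibitors that could be tested. Of these, 11, 3, 4 and 1 had an unadjusted p under 0.05 and DESeq2 called 6, 2, 4 and 1, where 1845 of all 14306 genes had such a p and DESeq2 called 648. Their median log2 differences were 1.42, 0.18, 0.78 and 0.29, beside -0.015 over all genes.

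The receptors of these matrices differed by cell type as well. BCAM, a receptor of LAMA5 laminins, was at 2576 CPM ± 577 in AT1-like (n = 4), 1065 CPM ± 173 in mesothelial-like (n = 6) and 413 CPM ± 81.9 in capillary endothelial-like cells (n = 6). ITGA1, the alpha 1 subunit of a collagen IV receptor, was at 1633 CPM ± 528 in pericyte-like (n = 2) and 485 CPM ± 263 in capillary endothelial-like cells (n = 6). In stromal-like cells ITGA1 (log2 difference 1.35) and ITGA6 (1.42) did not pass (adjusted p = 0.0671 and 0.0698, edgeR). DDR2, a receptor of fibrillar collagen, fell there by 1.24 on the log2 scale (SE 0.25, adjusted p = 0.0485, edgeR), from 146 CPM ± 40.5 to 74.0 CPM ± 15.8 (SD, n = 3 each), the only receptor of 11 called by edgeR, against 1.93% of all genes, while DESeq2 called 4 of the 11. This call was lost without any 1 library, and without capillary endothelial-like and pericyte-like cells the log2 difference was -0.53 (adjusted p = 0.785, edgeR).

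Of the other lists, few genes passed within types. TIMP1, an inhibitor of matrix metalloproteinases, fell by 1.45 in stromal-like cells, from 4281 CPM ± 713 to 1859 CPM ± 546 (adjusted p = 0.0492, edgeR), and by 1.68 in endothelial-like cells (adjusted p = 0.0182, edgeR). ADAMTS1, a secreted protease of proteoglycans, fell by 1.40 in endothelial-like cells (adjusted p = 0.0417, edgeR), so that 2 of 5 proteases and inhibitors were called there, against 5.7% of all genes. Capillary endothelial-like cells, whose share of the stromal-like and endothelial-like cells is given above, were the more frequent in asthma, and without them and pericyte-like cells TIMP1 had -0.77 in stromal-like (adjusted p = 0.576, edgeR) and -0.28 in endothelial-like cells, and ADAMTS1 -0.57, none of them called. TIMP1 in stromal-like cells also lost its call without any 1 library other than asthma replicate 8, and both calls in endothelial-like cells without 4 of the 6 libraries in turn, all but control replicate 2 and asthma replicate 8. LAMA2 rose in endothelial-like cells, from 3.87 CPM ± 5.54 to 30.0 CPM ± 4.83 (log2 difference 3.28, adjusted p = 0.0229, edgeR), 1 of 7 other components, a call that held only without control replicate 2 when 1 library was left out. Of its 88 UMIs in the asthma libraries, 87 lay in capillary endothelial-like cells, which made up 73.3%, 81.7% and 83.8% of these endothelial-like cells, against 26.7%, 38.2% and 11.8% in the controls. The controls held 3 UMIs of LAMA2, none of them in the 12, 13 and 12 capillary endothelial-like cells captured there. Without the capillary cells 3 UMIs were left in the controls and 1 in the asthma libraries, too few for the test, so that a change per cell and a change in the makeup of these cells cannot be told apart. NTN4, a netrin that binds laminin, fell by 2.24 in matrix fibroblast-like cells, from 100 CPM ± 40.5 to 25.7 CPM ± 16.2 (adjusted p = 0.0442, edgeR), 1 of 5, against 0.372% of all genes. This call was lost without 4 of the 6 libraries in turn, and held without control replicate 2 and without asthma replicate 10, and the sub-clusters of these cells were filled unequally by the groups as given above. In capillary endothelial-like cells alone TIMP1 averaged 165 CPM ± 103 over the 3 controls and 167 CPM ± 46.5 over the 3 asthma libraries.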

How the data were processed

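Lung cells of 3 control and 3 asthma monkeys were captured with the 10x Genomics 3′ kit. The authors deposited a matrix of raw UMI counts for every library (whole numbers, not normalized, macFas6 genome). The submitters' processing notes name Cell Ranger 2.1.1, whereas the methods and the file headers name other versions. Cells had over 500 and under 5000 genes, 500 UMIs or more and a mitochondrial share of 25% or less, which left 4339, 3200 and 3902 control cells (replicates 1, 2 and 3) and 4136, 4620 and 4038 asthma cells (8, 10 and 11), slightly fewer than the study names.

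Cells scaled to 10000 UMIs were clustered on 10 components of 2000 variable genes, without the 9 genes and the gene lists (scanpy 1.11.5, leidenalg 0.10.2, resolution 0.8), and clusters were named from at least 3 detected markers of a class, and sub-clusters from at least 3 of a subtype (otherwise by class). Granulocyte and monocyte clusters were merged after they were seen, and 551 cells of mixed and 898 of unnamed clusters were kept apart. These names were rebuilt, so a difference from the study may come from them. Sub-clusters of stromal, epithelial and mesothelial cells that held markers of a class outside their own were the mixed ones. Immune clusters were not checked in this way. No cells were removed by a doublet score in the main analysis. By Scrublet score 793 cells ranked highest (0.8% per 1000 cells), of which 211 lay in mixed clusters and 582 stayed in the other clusters, and removal of all of them was an alternative.

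UMI counts were summed per library and type and tested with edgeR 4.0.16 (quasi-likelihood test, TMM, filterByExpr, R 4.3.3) where at least 2 libraries a group had at least 10 cells. A gene was called at a Benjamini-Hochberg adjusted p under 0.05 over all genes of the type and an absolute log2 difference over 0.25. The interaction had library as a block. Chain shares needed at least 20 UMIs of both chains and were compared by exact permutation. The fits were tested on simulated counts. Each monkey gave 1 library, and scarce cells limit precision as their UMI counts show.

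Alternatives were DESeq2 1.42.0, no TMM factor, no filter on low counts, a 10% mitochondrial maximum, resolution 1.6, doublets removed, all barcodes, the mean over cells for levels, and leaving out each library. Leaving out capillary endothelial-like, pericyte-like and AT1-like cells and splitting the matrix fibroblast-like cells were chosen after seeing the data. Genes named were the 9, list genes that were called or among the 4 most abundant of a list in a type, and the 3 genes most correlated with each of the 9. ITGA6 in stromal-like cells was named after its values were seen. The 9 genes, the lists and the tests were chosen with earlier results of these data known. The number of other columns of per-sample values was 0.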

Additional observations from a re-analysis of the deposited data

How the results depend on the processing

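COL4A2 kept its call in whole libraries with DESeq2, no TMM factor, no filter, 10% mitochondrial UMIs, doublets removed and all barcodes. Without the TMM factor the median log2 difference of all genes moved from -0.015 to 0.13 in whole libraries, from 0.0057 to 0.26 in stromal-like and from 0.026 to 0.24 in endothelial-like cells. Genes called higher and lower then went from 108 and 76 to 358 and 59 in stromal-like and from 198 and 243 to 429 and 158 in endothelial-like cells. Of the 9 genes, 5 were called in whole libraries by DESeq2. Leaving out 3 types (capillary endothelial-like, pericyte-like and AT1-like) gave 0 calls, with COL4A2 at 1.24. In stromal-like cells COL4A1 and COL4A2 were called, 2 genes, with no TMM factor and with no filter, and 0 without these 3 types. With no filter 2 were called in endothelial-like cells (LAMC1 and COL4A2) and 1 in matrix fibroblast-like cells (LAMB2). At 10% mitochondrial UMIs the call in stromal-like cells passed from COL4A2, with 1.31 (adjusted p = 0.056, edgeR), to COL4A1, with 1.64 (adjusted p = 0.0406, edgeR). COL4A2 in stromal-like cells had -0.024 with the 3 types left out. The cause of these changes was not tested.

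Some differences that were not called changed sign. Without capillary endothelial-like, pericyte-like and AT1-like cells, LAMA4 and LAMA5 had 0.14 and -0.41 in stromal-like and LAMB2 0.043 in endothelial-like cells. With no TMM factor, LAMB2 and NID1 had 0.082 and 0.11 in endothelial-like and COL4A2 0.064 in fibroblast-like cells. At 10% mitochondrial UMIs, LAMA5 and NID1 had -0.014 and 0.20 in endothelial-like and COL4A2 0.12 in fibroblast-like cells. In capillary endothelial-like cells LAMA4 and LAMC1 had 0.21 and 0.86 at resolution 1.6, and LAMA5 0.17 with no filter.

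Leaving out 1 library gave 0 to 1 called of the 9 genes in whole libraries, stromal-like cells, endothelial-like cells and the interaction. COL4A2 ranged from 1.92 to 2.25 in whole libraries and from 1.02 to 1.40 in stromal-like cells, where LAMB1 ranged from -0.093 to 0.59. In capillary endothelial-like cells COL4A1 ranged from -0.76 to 0.17, COL4A2 from -0.70 to 0.079, LAMA5 from -0.40 to 0.68, LAMB2 from -0.32 to 0.038 and LAMC1 from -0.81 to 1.88. In endothelial-like cells LAMB2 ranged from -0.28 to 0.033 and NID1 from -0.44 to 0.16, and in fibroblast-like cells COL4A1 from -0.42 to 1.05 and COL4A2 from -0.54 to 0.074. Of 498 log2 differences recomputed for the 9 genes, 450 kept their direction and side of the threshold. No paired analysis was possible because control and asthma libraries share no replicate number.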
